A study of Saccharomyces cerevisiae with 4 samples.

Results

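Aminoacyl-tRNA synthetases attach each amino acid to its own tRNA, the step that supplies ribosomes with charged tRNAs. Yeast has separate genes for most of the cytosolic and mitochondrial enzymes. A few genes serve both compartments through alternative starts of translation, and *ALA1*, *GRS1*, *HTS1* and *VAS1* are of this kind. The enzymes fall into 2 structural classes, called class I and class II, which differ in the fold of the catalytic domain. tRNAs that are left uncharged activate the kinase Gcn2, which raises translation of Gcn4, the activator of amino acid synthesis genes.

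The genes described here are 30 in number, 19 that act in the cytosol, the tRNA-binding cofactor gene *ARC1* included, and 11 for mitochondrial enzymes. They were chosen by name, as the probes whose array symbol, or a synonym of it, is one of these genes. Of the 30 genes 29 had a named probe, 18 cytosolic and 11 mitochondrial, among 6226 features in all. *GUS1*, the cytosolic glutamyl-tRNA synthetase, had no probe under its name or its synonym and is not analysed here. Each of the 29 genes had 1 probe. The symbol *MSF1* was taken as the mitochondrial phenylalanyl-tRNA synthetase gene, since that is its current symbol, but *MSF1* is also an older name of *UPS2*.

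The transcriptome was read on 4 arrays with a single dye, 2 hybridised with RNA of the sch9-deleted mutant of 59A and 2 with RNA of wild-type 59A. The labels describe them as biological replicates 1 and 2 of each strain. 59A is a haploid strain obtained from a spore of the wine yeast EC1118, and in the mutant a KanMX cassette, which confers resistance to G418, replaces the *SCH9* reading frame. *SCH9* encodes a protein kinase that acts downstream of TORC1 in nutrient signalling. Both strains fermented a synthetic medium with 230 g/L glucose and fructose, 142 mg/L assimilable nitrogen and 5% lipid factors at 24°C without air. Per the methods of the study, RNA of both strains was taken during fermentation at the same amount of CO2 produced. The labels give this medium for all 4 samples, while the methods of the study also name a medium with less nitrogen. Only 1 deleted strain was used, so that a feature of this isolate cannot be told apart from the deletion.

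The values are log2 intensities that the authors normalised by quantiles, with array medians between 8.52 and 8.53. *SCH9* itself had log2 intensities of 5.81 and 5.67 in the mutant, against 8.72 and 8.67 in the wild type. Of the mating-type markers, *STE2*, the receptor of a cells, had at least 9.98 on every array and was higher in the mutant. The a-cell markers *BAR1*, *MFA1* and *AGA2* were also higher in the mutant. *STE3*, the receptor of alpha cells, stayed between 5.69 and 5.74. The alpha marker *SAG1*, however, had 10.18 and 10.23 in the mutant, against 7.81 and 7.84 in the wild type. *MF(ALPHA)1*, also an alpha marker, stayed between 5.59 and 5.94 and was higher in the mutant. The cause of these marker differences was not tested. Replicates of 1 strain differed with a standard deviation of 0.135 over all features in the mutant and of 0.236 in the wild type. Log FC is the log2 intensity of the mutant minus that of the wild type, and a gene passed the test at an adjusted p under 0.05 (limma, Benjamini-Hochberg over 6226 features). Where a level is given, replicate 1 of the strain precedes replicate 2. Intensities of different probes are not comparable as levels of expression.

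Part of the cytosolic synthetase genes were lower in the sch9 mutant, while no mitochondrial one passed the test as lower, and whether the compartments differ was not tested. Among the 18 measured cytosolic genes, 7 fell in the mutant, 1 rose and 10 failed the test. That is 38.9% lower, against a background of 12.1% of all features lower and 14.6% higher. Among the 11 mitochondrial genes, 0 fell, 2 rose and 9 failed the test, and 1 was lower at an unadjusted p under 0.05, beside 21% of all features (limma). The median log FC was -0.41 for the cytosolic genes and -0.02 for the mitochondrial genes, beside -0.01 over all features. Both mutant arrays lay below both wild-type arrays in 14 cytosolic and 3 mitochondrial genes, beside 35.8% of all features, and above them in 2 and 5 genes, beside 33.7% of all features. The nearest arrays of the strains were almost equal in *MSM1*, counted as below (8.0878 in the mutant, 8.0886 in the wild type). The same held for *DED81*, counted as above (9.5539 in the mutant, 9.5531 in the wild type). Log FC was below 0 in 16 of the 18 cytosolic and in 6 of the 11 mitochondrial genes, and in 51.7% of all features. With either mutant array left out the cytosolic median log FC stayed negative, while most calls were lost. It was -0.48 without replicate 1 of the mutant and -0.34 without replicate 2 of the mutant. Without replicate 1 of the mutant only *HTS1* and *KRS1* kept their call, and without replicate 2 of the mutant none of the 29 genes did. Over all features fewer were then called as well, both lower and higher.

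**Figure D1:**
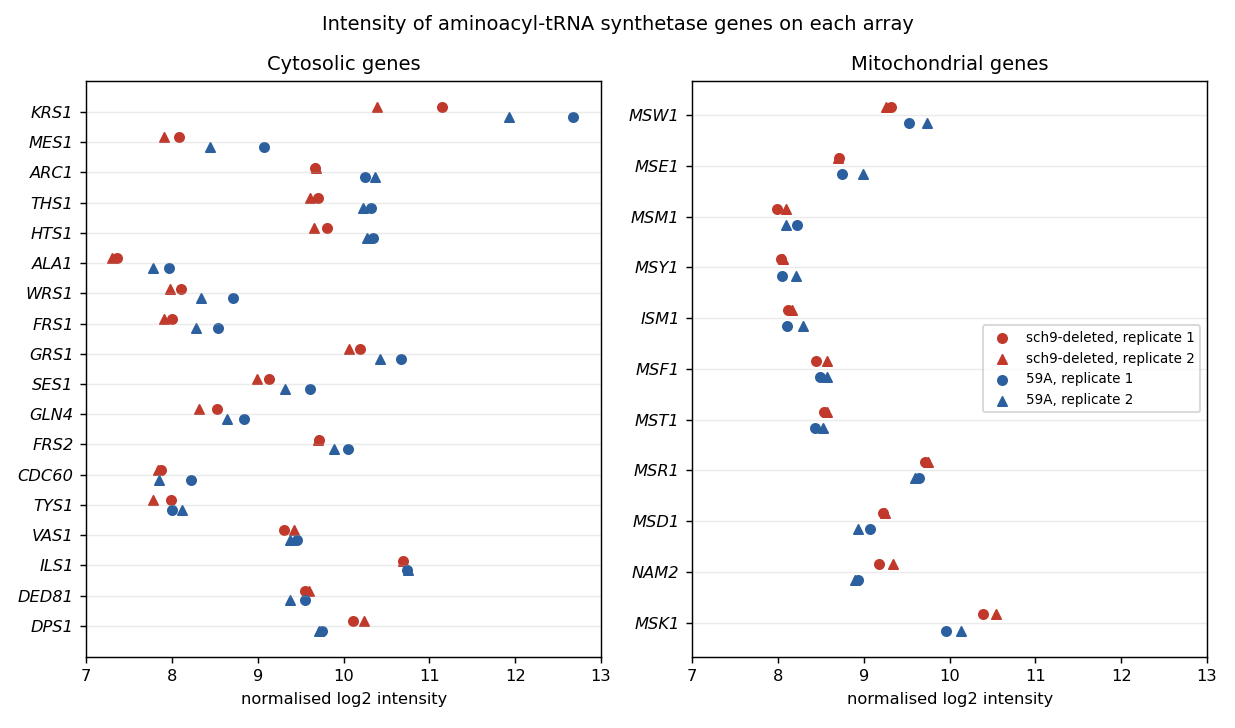
Normalised log2 intensity (x axis) of the 18 cytosolic (left) and 11 mitochondrial (right) genes on each array, the sch9-deleted mutant in red above wild-type 59A in blue, with circles for replicate 1 and triangles for replicate 2. *KRS1* lies between 10.4 and 11.1 in the mutant and between 11.9 and 12.7 in the wild type, and the points of most mitochondrial genes lie close together.

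The lowest log FC of the 29 genes belonged to *KRS1*, the lysyl-tRNA synthetase gene of the cytosol. Its log2 intensity was 11.14 and 10.39 in the mutant, against 12.67 and 11.93 in the wild type. The strains did not overlap, although replicates of 1 strain differed by 0.75 in the mutant and by 0.74 in the wild type, in both with replicate 1 the higher. The log FC was -1.53 (standard error 0.33, adjusted p = 0.0279), that is, 0.346 times the wild-type intensity. *KRS1* was the only one of the 29 genes that passed with a log FC beyond 1 in size, a criterion that 1.64% of all features met in the lower and 2.18% in the higher direction. Without replicate 2 of the mutant its log FC was -1.16 and it did not pass.

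*MES1*, *ARC1* and *GUS1* encode partners, since the Arc1 protein binds the methionyl- and glutamyl-tRNA synthetases and presents tRNA to them. *ARC1* had 9.66 and 9.68 in the mutant, against 10.25 and 10.37 in the wild type, with little spread within a strain. Its log FC was -0.64 (standard error 0.08, adjusted p = 0.00658). *MES1*, the methionyl-tRNA synthetase gene, had 8.08 and 7.90 in the mutant, against 9.07 and 8.44 in the wild type. The strains did not overlap, but the wild-type arrays differed by 0.64, and the log FC of -0.76 (standard error 0.21) had an adjusted p of 0.0534. *MES1* passed under 7 of 12 alternative settings, at log FC from -1.08 to -0.44 over the 12, so its call depends on the processing.

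A group of class II enzyme genes followed at smaller and more even differences. *THS1*, for threonine, had 9.70 and 9.61 in the mutant, against 10.32 and 10.22 in the wild type, and the log FC was -0.61 (adjusted p = 0.00812, standard error 0.08). *HTS1*, for histidine in both compartments, had 9.81 and 9.65 in the mutant, against 10.34 and 10.27 in the wild type, and the log FC was -0.58 (adjusted p = 0.0119, standard error 0.09). *ALA1*, for alanine in both compartments, had 7.35 and 7.29 in the mutant, against 7.97 and 7.78 in the wild type, and the log FC was -0.55 (adjusted p = 0.0148, standard error 0.09). In these 3 genes the gap between the strains exceeded the difference between replicates of either strain. *GRS1*, for glycine in both compartments, had 10.19 and 10.06 in the mutant, against 10.67 and 10.42 in the wild type, and the log FC was -0.42 (adjusted p = 0.0452, standard error 0.11). *GRS1* lies near the threshold and did not pass after scaling to the 75th percentile.

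Phenylalanyl-tRNA synthetase of the cytosol is built from 2 kinds of subunit, encoded by *FRS1* (beta) and *FRS2* (alpha). *FRS1* had 8.00 and 7.90 in the mutant, against 8.54 and 8.28 in the wild type, and its log FC was -0.45 (standard error 0.11, adjusted p = 0.0374). *FRS2* had 9.71 and 9.70 in the mutant, against 10.05 and 9.88 in the wild type, and its log FC was -0.26 (standard error 0.09, adjusted p = 0.0778). Only the beta subunit gene passed, while the arrays of the strains were apart in both, and whether the subunits differ in response was not tested.

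The one cytosolic gene that was higher in the mutant was *DPS1*, the aspartyl-tRNA synthetase gene. It had 10.11 and 10.23 in the mutant, against 9.75 and 9.72 in the wild type, without overlap. The log FC was 0.44 (standard error 0.08, adjusted p = 0.0186), or 1.36 times the wild-type intensity. *DED81*, for asparagine, was the only other cytosolic gene with a positive value, and the log FC was 0.11 (adjusted p = 0.406, standard error 0.09). Its values of 9.55 and 9.60 in the mutant, against 9.55 and 9.38 in the wild type, were nearly equal in replicate 1 of both strains.

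The remaining cytosolic genes did not pass, at log FC from -0.48 to -0.05. *WRS1*, for tryptophan, had 8.11 and 7.97 in the mutant, against 8.71 and 8.34 in the wild type (log FC -0.48, adjusted p = 0.0582). *SES1*, for serine, had 9.13 and 8.99 in the mutant, against 9.61 and 9.32 in the wild type (log FC -0.40, adjusted p = 0.0623). *GLN4*, for glutamine, had 8.52 and 8.31 in the mutant, against 8.84 and 8.64 in the wild type (log FC -0.32, adjusted p = 0.0919). In these 3 genes both mutant arrays lay below both wild-type arrays, with replicate 1 the higher in each strain. *CDC60*, for leucine, had 7.87 and 7.84 in the mutant, against 8.22 and 7.85 in the wild type (log FC -0.18, adjusted p = 0.353). Replicate 2 of the wild type thus lay beside the mutant arrays, and without replicate 1 of the wild type the log FC was 0.0017. *TYS1*, for tyrosine, had 7.99 and 7.78 in the mutant, against 8.00 and 8.12 in the wild type, for a log FC of -0.18 (adjusted p = 0.239). *VAS1*, for valine in both compartments, had 9.31 and 9.42 in the mutant, against 9.45 and 9.38 in the wild type (log FC -0.06). *ILS1*, for isoleucine, had 10.70 and 10.69 in the mutant, against 10.73 and 10.75 in the wild type (log FC -0.05). The values of *VAS1* overlapped between strains, and those of *ILS1* differed by less than 1 standard error (0.07).

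**Figure D2:**
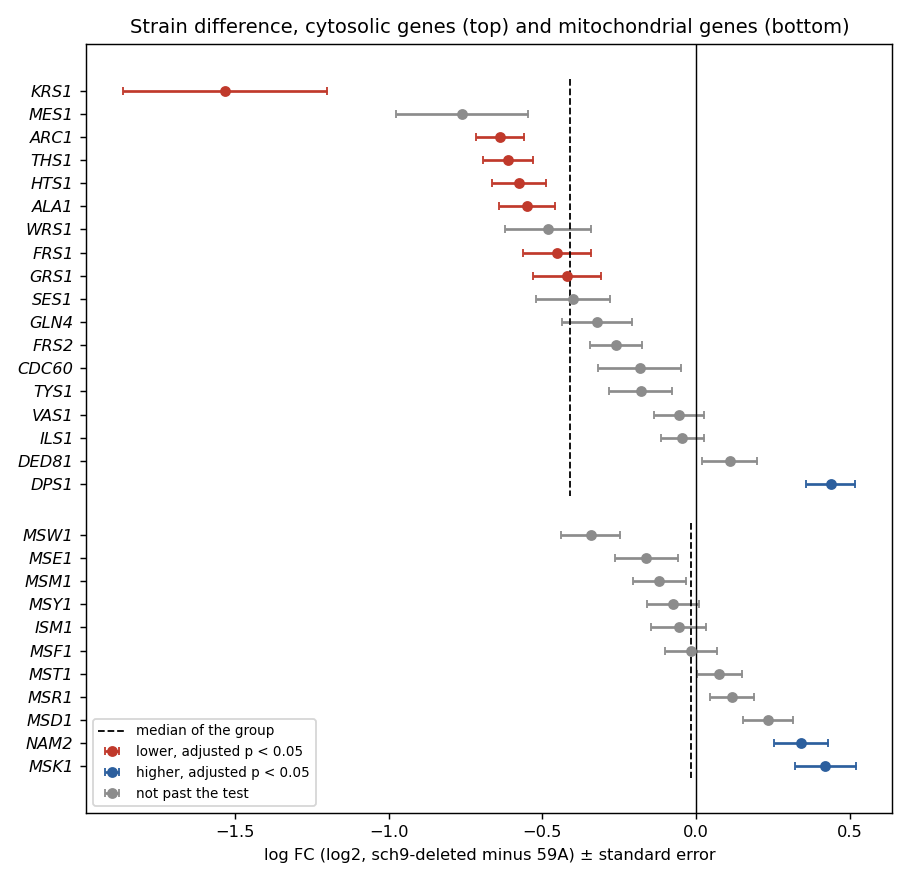
Log FC (x axis, log2 intensity of the sch9-deleted mutant minus wild-type 59A) with its standard error for each gene, cytosolic genes above and mitochondrial genes below, coloured by the limma test. The dashed lines mark the medians of -0.41 (cytosolic) and -0.02 (mitochondrial), and *KRS1* stands apart at -1.53.

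Divided by structural class, the lower cytosolic enzyme genes all belonged to class II. Over all features 12.1% were lower and 14.6% higher. Among 10 cytosolic class II genes, 6 fell, 1 rose and 3 failed the test, with log FC from -1.53 to 0.44 and a median of -0.44. Of 7 cytosolic class I genes 0 passed in either direction (limma), 3 had an unadjusted p under 0.05, beside 42.1% of all features, and their log FC ran from -0.76 to -0.05 with a median of -0.18. All 7 class I values were negative, beside 51.7% of all features. The difference between the classes was not tested, and the largest class I value, that of *MES1*, just missed the threshold. *MES1* did pass after median centring. *MES1* and *WRS1* (-0.48) had lower log FC than the called class II genes *FRS1* (-0.45) and *GRS1* (-0.42). Both mutant arrays lay below both wild-type arrays in 5 of 7 class I and 8 of 10 class II genes, beside 35.8% of all features. Of the 4 genes that serve both compartments 3 were lower, beside 12.1% of all features. Without them 4 of the 14 other cytosolic genes were lower, at a median log FC of -0.36.

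Among the mitochondrial enzymes, the genes for lysine and leucine passed the test as higher. That is 18.2% of the mitochondrial genes, near the 14.6% of all features that were higher. *MSK1*, the mitochondrial lysyl-tRNA synthetase gene, had 10.39 and 10.54 in the mutant, against 9.96 and 10.13 in the wild type. Its log FC was 0.42 (standard error 0.10, adjusted p = 0.0339), or 1.34 times the wild-type intensity. *NAM2*, whose product charges leucine and also takes part in splicing of mitochondrial introns, had 9.17 and 9.35 in the mutant, against 8.94 and 8.90 in the wild type. Its log FC was 0.34 (standard error 0.09, adjusted p = 0.0428). In both genes the strains did not overlap, but neither passed without replicate 1 or without replicate 2 of the mutant. *MSD1*, for aspartate, had 9.22 and 9.24 in the mutant, against 9.07 and 8.93 in the wild type, and the log FC was 0.23 (adjusted p = 0.0885, standard error 0.08).

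In the other direction *MSW1*, for tryptophan, had 9.32 and 9.25 in the mutant, against 9.52 and 9.73 in the wild type. Its log FC of -0.34 (standard error 0.10, adjusted p = 0.0531) was the lowest of the mitochondrial genes, and the strains did not overlap. It passed without replicate 1 of the wild type, at -0.45. *MSE1*, for glutamate, had 8.71 and 8.70 in the mutant, against 8.74 and 8.99 in the wild type (log FC -0.16, adjusted p = 0.292), and also passed without replicate 1 of the wild type. *MSM1*, for methionine, had 7.99 and 8.09 in the mutant, against 8.22 and 8.09 in the wild type (log FC -0.12, adjusted p = 0.353).

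The last 5 mitochondrial genes had log FC close to 0 in size. *MSR1*, for arginine, had 9.71 and 9.75 in the mutant, against 9.64 and 9.59 in the wild type, and *MST1*, for threonine, had 8.54 and 8.57 in the mutant, against 8.44 and 8.52 in the wild type. Their log FC were 0.12 and 0.08. *MSY1* (tyrosine), *ISM1* (isoleucine) and *MSF1* (phenylalanine) had -0.08, -0.06 and -0.02, with standard errors between 0.08 and 0.09 and with arrays that overlapped between the strains. The lowest percentile that any of the 29 genes reached on any array was 23.9, by *ALA1*, one of the genes called lower. All 29 genes stayed in an alternative fit that left out the features of lowest mean intensity.

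Among the chosen cytosolic and mitochondrial genes, 9 amino acids had a measured gene of their own in both compartments. This gives 10 pairs, because *FRS1* and *FRS2* share the partner *MSF1*. Genes of the further lists described below, those of aminoacylation included, were not paired. The difference in log FC, cytosolic minus mitochondrial, was below 0 in 8 of the 10 pairs, with a median of -0.34. Lysine had the widest gap, as *KRS1* fell and *MSK1* rose, with a difference of -1.95 (standard error 0.64 over the 4 arrays). For threonine (*THS1* and *MST1*) the difference was -0.69 (standard error 0.11), for methionine (*MES1* and *MSM1*) -0.64 (standard error 0.29) and for leucine (*CDC60* and *NAM2*) -0.53 (standard error 0.19). Phenylalanine gave -0.43 (standard error 0.21) with *FRS1* and -0.24 (standard error 0.14) with *FRS2*. Tryptophan, tyrosine and isoleucine gave -0.14, -0.11 and 0.01, within 1 standard error each (0.29, 0.12 and 0.09). Aspartate went the other way at 0.20 (standard error 0.08), with *DPS1* and *MSD1* both positive. The cytosolic minus mitochondrial intensity was lower on both mutant arrays than on both wild-type arrays in 6 pairs (those for lysine, threonine, methionine and leucine and both for phenylalanine), and higher in 1, that for aspartate. The smallest p that a two-sided exact permutation over 4 arrays allows is 0.333, so these differences are a description. No share over all features was computed for the sign or the separation of such pairs. Single features were apart at 35.8% lower and 33.7% higher.

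**Figure D3:**
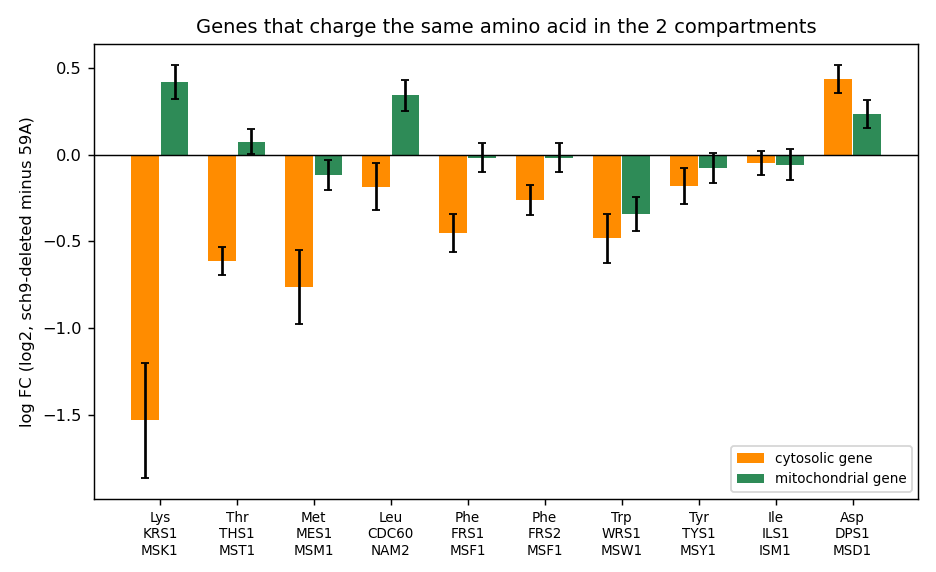
Log FC (y axis, log2, sch9-deleted mutant minus wild-type 59A) of the cytosolic and the mitochondrial gene for the same amino acid, with the standard error of each gene. Lysine shows opposite signs (-1.53 and 0.42), and *MSF1* is drawn beside both *FRS1* and *FRS2*.

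Replicate number moved with the cytosolic genes as well. Replicate 1 was higher than replicate 2 in 14 of the 18 cytosolic genes in the mutant and in 15 of them in the wild type, by a median of 0.10 and of 0.18 on the log2 scale. In the mitochondrial genes it was higher in 2 of 11 in the mutant and in 4 of 11 in the wild type, with medians of -0.03 and -0.08. Over all 6226 features it was higher in 2643 in the mutant and in 2777 in the wild type, with medians of -0.02 and -0.02. Taken as the deviation of each gene from its own mean over the 4 arrays, the cytosolic median was -0.14 and -0.27 in the mutant, against 0.30 and 0.06 in the wild type. Both mutant arrays thus lay below both wild-type arrays. The part of culture, RNA or slide position in this replicate difference was not tested.

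**Figure D4:**
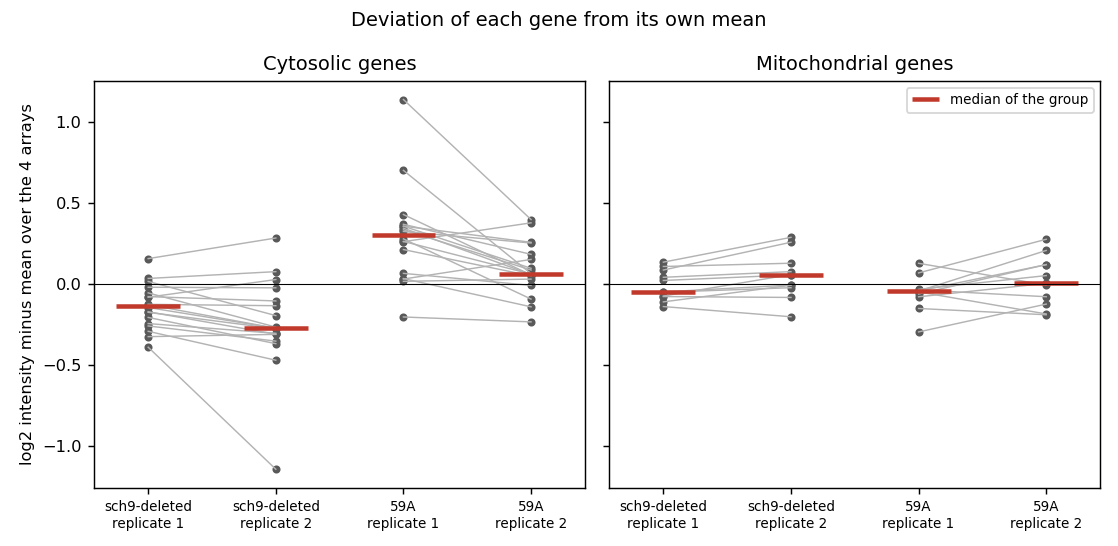
Log2 intensity of each gene minus its mean over the 4 arrays (y axis) by array (x axis), cytosolic genes left and mitochondrial genes right, with lines joining the replicates of a strain and red bars at the medians. The cytosolic medians lie at -0.14, -0.27, 0.30 and 0.06, and the mitochondrial ones between -0.05 and 0.06.

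Other genes of tRNA charging and use were taken from 4 lists. Of 12 further genes of aminoacylation 4 had a named probe. *CCA1*, which adds the CCA end to tRNAs in every compartment, was lower, and its log FC was -0.31 (adjusted p = 0.0320, standard error 0.07). The other 3, all mitochondrial in function, did not pass, and 12.1% of all features were lower. Of 10 measured genes for export of tRNA, its delivery to ribosomes and sensing of uncharged tRNA, 3 were lower and 0 were higher, beside 12.1% of all features lower, at a median log FC of -0.23. They were *UTP8*, which acts in export of tRNA and in processing of rRNA, with a log FC of -1.36, *GCN3*, a regulatory subunit of the initiation factor eIF2B, with -0.50, and *LOS1*, the tRNA exportin, with -0.38. The kinase gene *GCN2* had 8.73 and 8.81 in the mutant, against 8.51 and 8.69 in the wild type (log FC 0.17, adjusted p = 0.229). *GCN4* had 11.87 and 12.18 in the mutant, against 12.42 and 12.86 in the wild type, and the log FC was -0.61 (adjusted p = 0.0593, standard error 0.18). It did not pass, although the strains did not overlap, and in contrast to most cytosolic synthetase genes replicate 2 was the higher in both strains. Gcn4 is controlled mainly in translation, which arrays do not measure. *TEF1* and *TEF2*, near-identical genes of the elongation factor that carries charged tRNA to the ribosome and that may share signal on a probe, had log FC of -0.22 and -0.17 without passing.

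Among 19 measured genes of tRNA modification, 5 fell, 0 rose and 14 failed the test, beside 12.1% of all features lower, at a median log FC of -0.32. The lower ones include *TRM82*, a subunit of a tRNA methyltransferase, with a log FC of -1.26, *MOD5*, a tRNA isopentenyltransferase, with -0.84, and *DUS1*, a dihydrouridine synthase, with -0.47. Both mutant arrays lay below both wild-type arrays in 15 of the 19 genes, beside 35.8% of all features. Among 8 measured translation factors and tRNA-modifying enzymes of mitochondria, 0 fell, 1 rose and 7 failed the test, at a median log FC of 0.00. The 1 higher gene is 12.5% of the list, beside 14.6% of all features higher and 12.1% lower. The higher one was *TUF1*, the elongation factor that delivers charged tRNA in mitochondria, with 11.88 and 12.02 in the mutant, against 11.23 and 11.47 in the wild type. Its log FC was 0.60 (standard error 0.11, adjusted p = 0.0195). Like *MSK1* and *NAM2*, *TUF1* failed the test when either mutant array was left out. Among the lower genes named from these lists, *CCA1*, *GCN3*, *LOS1* and *DUS1* failed in the same way. *UTP8* and *TRM82* lost their call only when 1 particular mutant array was left out, and *MOD5* kept its call without either. The log FC of these lower genes stayed negative in each case.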

How the data were processed

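Total RNA of 4 fermentations was labelled with Cy3, hybridised to one-colour Agilent yeast arrays, all on slide 1, and read with GenePix. The deposited values are log2 intensities, which the authors normalised by quantiles between arrays with limma in R 2.14.2, per the labels and the methods. The values themselves fit a log2 scale. Whether a background was subtracted is not given in the sources used. No filter on dim spots was applied. A single symbol names 4061 of the 6227 probes, and 2166 are unnamed here.

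Names were matched by array symbol, then by RefSeq R64 synonyms, except synonyms that fit several genes. Probes of 1 gene were averaged. Mutant minus wild type was fitted in R 4.3.3 with limma 3.58.1 (lmFit, eBayes; prior degrees of freedom 3.29) over all 6226 features, and the fit was tested on simulated data. All measured members are named, with up to 3 passing genes per direction of each further list and *GCN4*, *GCN2*, *TUF1*, *TEF1* and *TEF2* throughout. The members and lists were chosen with earlier results of these data known, and lists were not tested. Replicate 1 lay at slide positions 4 (mutant) and 6 (wild type), replicate 2 at 7 and 1. P-values reflect 2 cultures per strain. Plots used matplotlib 3.10.9 in Python 3.11.15.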

Additional observations from a re-analysis of the deposited data

How the results depend on the processing

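The small number of arrays limits every call. Scaling, the treatment of variance, the filter on dim features and the choice of probe left 6 to 8 cytosolic genes lower and the same 3 genes (*DPS1*, *MSK1*, *NAM2*) higher, and reversed 0 of the 29 log FC. Lower cytosolic genes numbered 1 with a log FC beyond 1, 12 at an unadjusted p (21% of all features), 4 without the 4 genes of both compartments, and 0 to 13 with 1 array left out (2 and 0 without replicates 1 and 2 of the mutant, 9 and 13 without those of the wild type). The lower share of all features moved with these counts, to 3.08% and 0.932% without replicates 1 and 2 of the mutant and to 18.9% and 20.4% without those of the wild type. The 1 higher cytosolic gene was lost with a log FC beyond 1, a criterion that 2.18% of all features met as higher. It was also lost without either mutant array, where fewer of all features were higher too. Lower mitochondrial genes numbered 1 at the unadjusted p and 0 to 2 with 1 array left out. Higher mitochondrial genes numbered 0 with a log FC beyond 1 and 3 at the unadjusted p, beside 21.1% of all features higher at that p. The 2 that passed the test were lost without either mutant array, where fewer of all features were higher as well. *MSD1* joined them without replicate 1 of the wild type, where more of all features were higher. The mitochondrial median ran from -0.078 to 0.049 with 1 array left out, being 0.049 without replicate 1 of the mutant and 0.034 without replicate 2 of the wild type. Over all features 37 to 206 were lower past both criteria. Signs turned in *CDC60* (0.0017 without replicate 1 of the wild type, range -0.37 to 0.0017), in *MSY1* (0.0057, range -0.16 to 0.0057), *ISM1* (0.034, range -0.15 to 0.034) and *MSF1* (0.025) without replicate 2 of the wild type, and in *MSF1* (0.049, range -0.084 to 0.049) without replicate 1 of the mutant.

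In a fit that took replicate number as a block, 12 cytosolic genes and 1 mitochondrial gene (*MSW1*) were lower, while 21.1% of all features were lower. The deviations of same-numbered arrays correlated at 0.531 over all features, but with 2 pairs and no label that ties them the arrays share only a number. The causes of these changes were not tested.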
